A study of Rattus norvegicus with 9 samples.

Results

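The S100 genes encode small calcium-binding proteins, and 10 of them (S100a1, S100a4, S100a6, S100a8, S100a9, S100a10, S100a11, S100a13, S100a16 and S100b) were followed across the left ventricles of 9 rats by RNA-seq. They were taken by name from a table of 35843 genes, and each name matched 1 row. All rats were Sprague-Dawley rats (labelled SD Rat) sampled on day 28. They were adult males according to the study's methods. Group Sham was operated without myocardial infarction and received saline. Group MI had the left anterior descending coronary artery tied off surgically and also received saline. Group MI + DAPA (1st d), called the DAPA group here, had the same ligation and received dapagliflozin, an inhibitor of the renal sodium-glucose cotransporter, by daily gavage from the first day. Each group held 3 rats. Each sample title lists a pair of names, and what the pair stands for was not given in the sources used here. The study's methods state 3 biological replicates per group, and each sample was counted as 1 rat. The study's methods describe removal of the scar and sampling mainly at the infarct border, while its results call the RNA-seq tissue of the ligated groups infarct myocardium.

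S100 proteins form dimers that open on binding calcium through EF-hand loops and then dock on target proteins inside the cell. Several are also released by stressed or dying cells and act as danger signals on receptors such as the receptor for advanced glycation end products (Ager) and Toll-like receptor 4 (Tlr4). In the heart, S100a1 is the main family member of cardiomyocytes, S100a4 is widely used as a marker of fibroblasts and is also made by macrophages, S100b is best known from glia and has been found in cardiomyocytes that survive an infarct, and S100a8 and S100a9 form calprotectin, an abundant complex of neutrophils and monocytes.

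The values are FPKM, fragments scaled to gene length and to library size, so levels can be compared between genes of different length. From the steps between low values, 13597239 to 17210909 reads per rat were recovered, and 5702454 to 13171891 per rat remained once the mitochondrial genome was set aside. That genome held between 61.1% and 66.9% of the reads of a Sham rat, between 7.07% and 19.1% of an MI rat and between 17.5% and 32.0% of a DAPA rat. The deposited FPKM divides by a denominator that roughly follows the other reads, and the median log2 fold change of all genes in MI vs. Sham was -0.01 on that scale, 0.92 when scaled to all recovered reads and 1.301 when scaled to a common sum. Differences from group Sham are therefore given relative to the bulk of the other genes. In DAPA vs. MI the median over all genes was -0.02, -0.21 and -0.34 on the same scales. All 10 listed cardiomyocyte markers (among them Myh6, Tnnt2 and Myl2) were above 0 in every group, with a summed FPKM of 9133 to 13032 in group Sham, 2843 to 14943 in group MI and 11804 to 25003 in the DAPA group. In such bulk tissue, fewer cells of a type and less RNA per cell cannot be told apart.

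The start-site sequences of 4 members are shown for their calls in MI vs. Sham and because 3 of them lie in 1 gene cluster. S100a4 and S100b were called higher and S100a13 and S100a16 lower in group MI. S100b was called by the unadjusted p only, and its groups overlapped. RefSeq's GRCr8 assembly places S100a1, S100a13, S100a16, S100a4, S100a6, S100a8, S100a9, S100a11 and S100a10 on chromosome 2 and S100b on chromosome 20. No other protein-coding gene lies between S100a1 and S100a13, and the run from S100a1 to S100a9 holds S100 genes only. Promoters of 7 of the 10 members were found in the RefSeq table, each running from 250 bases before the start site to 50 bases after it, 5′ to 3′. Capitals mark TATAAA, the core of the TATA box, and GGGCGG, the core of the GC box, on either strand.
S100a4 (chr2:178388279-178388578, plus strand): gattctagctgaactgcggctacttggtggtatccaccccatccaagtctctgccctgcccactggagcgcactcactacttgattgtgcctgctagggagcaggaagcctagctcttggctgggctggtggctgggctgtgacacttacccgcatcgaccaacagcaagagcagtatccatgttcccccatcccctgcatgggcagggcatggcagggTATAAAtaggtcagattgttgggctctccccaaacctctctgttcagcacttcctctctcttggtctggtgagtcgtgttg
S100b (chr20:12381032-12381331, minus strand): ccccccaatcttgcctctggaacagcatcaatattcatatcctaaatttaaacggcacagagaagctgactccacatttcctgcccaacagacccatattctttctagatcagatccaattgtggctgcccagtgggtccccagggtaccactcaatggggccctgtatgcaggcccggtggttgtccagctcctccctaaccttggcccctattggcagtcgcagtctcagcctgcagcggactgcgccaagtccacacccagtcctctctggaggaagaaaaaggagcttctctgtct
S100a13 (chr2:178296770-178297069, plus strand): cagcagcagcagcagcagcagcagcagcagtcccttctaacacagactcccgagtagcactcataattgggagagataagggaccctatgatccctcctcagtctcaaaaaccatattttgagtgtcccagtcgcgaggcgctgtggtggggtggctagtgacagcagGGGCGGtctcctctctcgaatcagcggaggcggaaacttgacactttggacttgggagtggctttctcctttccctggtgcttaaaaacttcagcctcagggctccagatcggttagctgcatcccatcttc
S100a16 (chr2:178313736-178314035, plus strand): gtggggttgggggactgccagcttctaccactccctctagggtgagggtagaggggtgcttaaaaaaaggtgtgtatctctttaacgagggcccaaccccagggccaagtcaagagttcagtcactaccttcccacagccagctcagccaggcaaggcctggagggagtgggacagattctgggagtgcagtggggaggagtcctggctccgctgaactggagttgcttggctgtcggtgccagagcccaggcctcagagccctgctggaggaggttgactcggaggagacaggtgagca
S100a4 held TATAAA, its first base 31 bases before the start site, and S100a13 held GGGCGG, 82 bases before it. S100b and S100a16 held neither of these. The CAAT box core CCAAT occurred 3 times in S100b and 1 time in S100a13. The motif TGANTCA, the core bound by AP-1 factors, was in none of the 7 windows. Across 33469 rat promoters of the same length, TATAAA was present in 14.2%, GGGCGG in 33.1%, CCAAT in 37.5% and TGANTCA in 7.33%, both strands counted. S100a4 and S100b had none of these motifs in common, and neither did S100a13 and S100a16.

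S100a11, S100a10 and S100a6 made up most of the S100 transcripts in every rat. Mean FPKM in group Sham was 649 ± 104 (SD, n = 3) for S100a11, 337 ± 56.9 for S100a10 and 284 ± 82.4 for S100a6. S100a16 (173 ± 39.3), S100a4 (96.8 ± 45.9), S100a13 (75.4 ± 9.71) and S100a1 (64.2 ± 15.1) followed. S100a9 (21.8 ± 10.9), S100a8 (11.2 ± 6.81) and S100b (2.15 ± 1.95) were the lowest. Only S100a11 and S100a10, and S100a1 and S100a9, stood apart as neighbours in this order, and the Sham rats of all other neighbouring genes overlapped. The order of means in group MI differed in 1 exchange, S100a4 above S100a16. In the DAPA group S100a6 (419 ± 102) and S100a11 (418 ± 74.9) had nearly the same mean, and S100a4 again stood above S100a16.

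**Figure D1:**
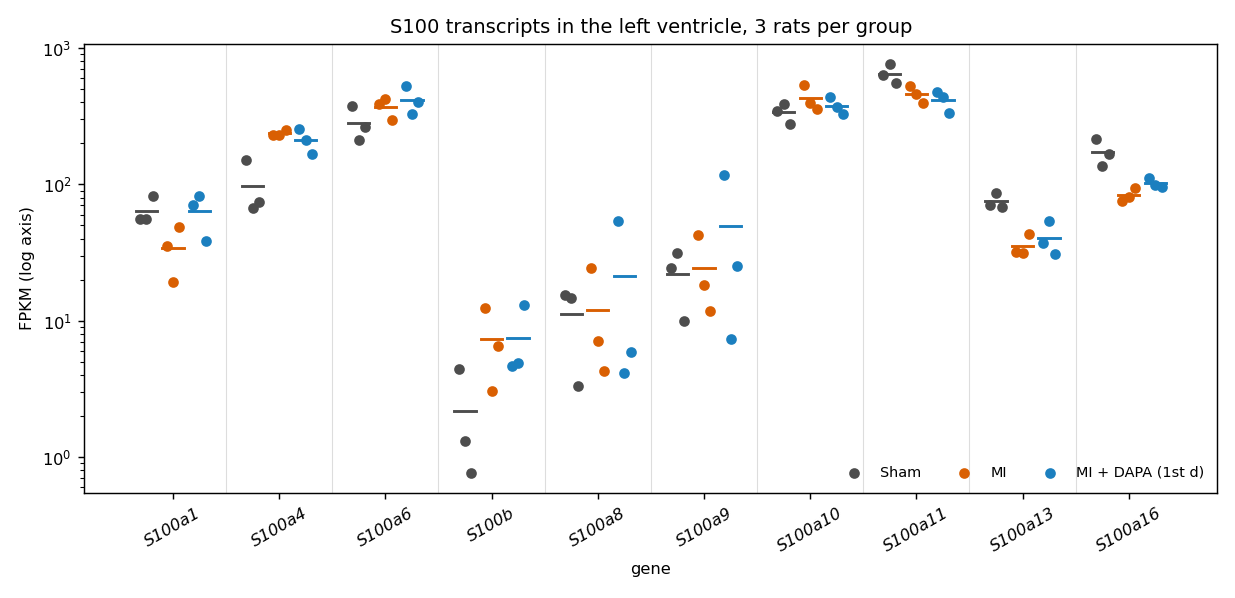
FPKM of the 10 S100 genes on a log axis, with 1 point per rat and a bar at the mean of the 3 rats of each group (grey Sham, orange MI, blue MI + DAPA (1st d)). S100a4 lies higher and S100a13 and S100a16 lower in both ligated groups than in group Sham, and the S100a8 and S100a9 points of 1 DAPA rat stand at 53.4 and 116, above all others.

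Between MI and Sham, S100a4 and S100b were called higher and S100a13 and S100a16 lower in group MI. The S100b groups overlapped, and its call held by the unadjusted p only. A gene was called when the unadjusted p of limma was under 0.05 and the log2 fold change on log2(FPKM + 1) exceeded 1 in size. That rule called 2 of 10 members higher, where 12.1% of the 13485 genes tested were called higher, and 2 of 10 lower, where 10.3% were. With Benjamini-Hochberg adjustment in place of the fold limit, 1 member was higher and 2 were lower, against 19.5% of all genes in each direction. The 3 rats of group MI all stood above the 3 Sham rats for 1 member (27.1% of all genes) and below them for 4 members (27.5%). The median log2 fold change was 0.04 over the members and -0.01 over all genes. With 10 members, these counts are near the background of a comparison in which a large part of the transcriptome differed.

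Between the DAPA group and group MI, no member was called in either direction, where 0.951% of 13251 genes were called higher and 1.11% lower. By the Benjamini-Hochberg adjusted p of limma, 0 members and 0 of all genes passed, and 0 members had an unadjusted p under 0.05. Of the 10 log2 fold changes, 7 were positive and their median was 0.17, against -0.02 over all genes. For 1 member, S100a16, every DAPA rat stood above every MI rat, which held for 6.63% of all genes, and for 0 members every DAPA rat stood below (7.16%). Against group Sham, the DAPA group had 2 of 10 members called higher, S100a4 and S100b (9.54% of 13359 genes), and 0 called lower (8.16%). The adjusted p called 1 member higher and 2 lower in that comparison, against 14.5% and 14.1% of all genes. MI rats enter MI vs. Sham and DAPA vs. MI, and Sham rats enter MI vs. Sham and DAPA vs. Sham, so the comparisons are not independent of each other.

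**Figure D2:**
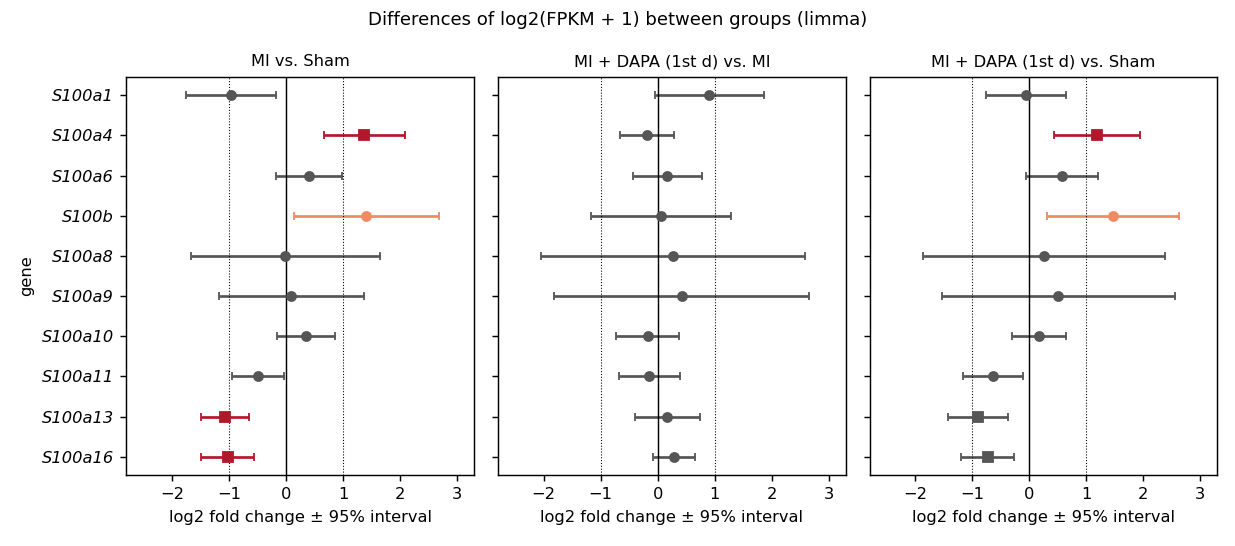
Log2 fold changes of the 10 genes with 95% intervals from limma, 1 panel per comparison, with dotted lines at the fold limit of 1. Red points were called by unadjusted p and fold, pale red ones by that rule only, and squares passed the Benjamini-Hochberg adjusted p. The DAPA vs. MI panel holds no called gene, and every interval in it includes 0.

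S100a1 binds the ryanodine receptor and the calcium pump of the sarcoplasmic reticulum and raises their activity in cardiomyocytes. Its FPKM was 55.3, 55.7 and 81.7 in the Sham rats, 35.0, 19.1 and 48.3 in the MI rats and 70.0, 82.8 and 38.6 in the DAPA rats. All MI rats lay below all Sham rats, while DAPA rat 1 lay inside the Sham range, DAPA rat 2 just above it and DAPA rat 3 inside the MI range. In MI vs. Sham the log2 fold change was -0.96 (SE 0.34, Benjamini-Hochberg adjusted p = 0.0580, limma), just under the fold limit, and it exceeded the limit without Sham rat 1, Sham rat 2, MI rat 1 or MI rat 3 and with the mitochondrial genome left out. Scaled to all recovered reads it was 0.12, and -0.80 relative to the median of all genes on that scale. DAPA vs. MI gave 0.91 (95% interval -0.04 to 1.86, adjusted p = 0.558, limma), from 0.55 without MI rat 2 to 1.23 without DAPA rat 3. It was called without DAPA rat 3 and without MI rat 3 (1.20).

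The lowest rat of each ligated group for S100a1 was also the lowest of that group for the cardiomyocyte markers. In MI vs. Sham 3 of the 10 markers were called lower (10.3% of all genes) and 0 higher (12.1%). In DAPA vs. MI 2 were called higher (0.951% of all genes), and 0 passed the adjusted p. All 10 were positive there, with a median log2 fold change of 1.36. In DAPA vs. Sham 5 were called higher and 1 lower (9.54% and 8.16% of all genes), with a median of 1.06. MI rat 2, lowest for S100a1, also had the lowest summed marker FPKM (2843), and DAPA rat 3, the lowest DAPA rat for S100a1, had the lowest sum of its group (11804), a sum inside the Sham range. MI rat 3 lay below all Sham rats for S100a1 but above them all for the marker sum (14943). Per 1000 FPKM of these markers, S100a1 was 6.06, 4.94 and 6.27 in the Sham rats, 4.32, 6.71 and 3.23 in the MI rats and 3.22, 3.31 and 3.27 in the DAPA rats. On that measure the DAPA rats lay closely together and all below the Sham rats (3.27 ± 0.0463 and 5.75 ± 0.713, SD, n = 3, two-sided exact permutation p = 0.1, the smallest that 3 against 3 rats allow). The MI rats spanned both ranges (DAPA vs. MI, exact permutation p = 0.3). S100a1 itself gave a log2 fold change of -0.06 in DAPA vs. Sham, while the mean log2 FPKM of the markers was 0.68 higher in the DAPA group. The lower measure in the DAPA rats thus lay mostly in the markers it is divided by. The part of the marker difference in the S100a1 values was not tested. The 3 genes whose centred log2(FPKM + 1) lay nearest to S100a1 over the 9 rats, among 13485 genes, were Ndufa2 (root mean square difference 0.08), Uqcrc1 (0.11) and Atp5mc3 (0.12), subunits of mitochondrial respiratory complexes and of ATP synthase encoded in the nucleus. No other member came nearer to it than S100a13 (0.51), its neighbour on the chromosome.

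The partners of S100a1 in the sarcoplasmic reticulum were lowest in MI rat 2 as well. Atp2a2, the calcium pump, was at 90.0, 107 and 133 FPKM in the Sham rats, 104, 66.6 and 150 in the MI rats and 211, 247 and 144 in the DAPA rats. Its log2 fold change was -0.10 in MI vs. Sham and 0.94 in DAPA vs. MI (adjusted p = 0.558, limma), under the fold limit. Pln, the inhibitor of that pump, was at 217, 99.7 and 439 FPKM in the MI rats and 493, 723 and 334 in the DAPA rats, with overlap (1.21, adjusted p = 0.558, limma). Ryr2, the calcium release channel, had 0.60 in DAPA vs. MI. In DAPA vs. Sham all DAPA rats lay above all Sham rats for Atp2a2 (0.84, adjusted p = 0.0392, limma), past the adjusted p but under the fold limit, where S100a1 gave -0.06. None of these 3 targets passed the rule of unadjusted p and fold in any comparison, and the 3 Sham rats lay between 238 and 385 FPKM for Pln and between 2.27 and 5.45 for Ryr2.

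S100a4, also known as fibroblast-specific protein, binds non-muscle myosin and affects cell motility. It was at 150, 66.5 and 74.3 FPKM in the Sham rats, 229, 231 and 249 in the MI rats and 255, 211 and 167 in the DAPA rats. Every ligated rat lay above every Sham rat, the MI rats closely together, and the DAPA rats on both sides of them. S100a4 rose 2.44-fold in group MI by the ratio of mean FPKM (log2 fold change 1.37, SE 0.30, adjusted p = 0.0117, limma) and 2.18-fold in the DAPA group (1.19, SE 0.32, adjusted p = 0.0300, limma). The DAPA call was lost without Sham rat 2, where the log2 fold change was 0.97. The direction was the same under every scaling, with 2.48 in MI vs. Sham when scaled to all recovered reads. DAPA vs. MI differed by -0.18 (95% interval -0.66 to 0.29), which leaves room for a decrease of up to 0.66. It was -0.41 when scaled to all recovered reads and -0.55 when scaled to a common sum (unadjusted p = 0.0494 and 0.0275, limma), under the fold limit. Relative to the median of all genes on those scales it was -0.20 and -0.21.

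S100a6, or calcyclin, is made by proliferating fibroblasts and other cells. Its FPKM was 374, 213 and 264 in the Sham rats, 388, 422 and 298 in the MI rats and 529, 327 and 401 in the DAPA rats, and all groups overlapped. The log2 fold changes were 0.40 in MI vs. Sham (adjusted p = 0.235, limma) and 0.17 in DAPA vs. MI, and neither was called. S100a6 was called higher in MI vs. Sham on the 2 scalings to a larger total (1.51 when scaled to all recovered reads, 0.59 above the median of all genes there), and not with median-of-ratios scaling (0.44) or the mitochondrial genome left out (0.36). S100a6 lies next to S100a5 and close to S100a4, yet the S100a4 to S100a6 ratio within a rat was 0.281 to 0.400 in group Sham, 0.549 to 0.837 in group MI and 0.416 to 0.646 in the DAPA group, so S100a4 stood higher against its neighbour in all ligated rats (exact permutation p = 0.1 for each ligated group against Sham).

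Markers of fibroblasts and macrophages, like S100a4, were higher in the ligated rats than in group Sham. Within each ligated group, the 3 rats did not stand in the same order for these sums as for S100a4. Of 8 listed fibroblast markers, 7 were called higher in MI vs. Sham, where 12.1% of all genes were. In DAPA vs. MI 1 was called lower (1.11% of all genes). The list summed to 343 to 538 FPKM in group Sham, 1946 to 3565 in group MI and 1544 to 1997 in the DAPA group. All 8 macrophage markers were called higher in MI vs. Sham (summed FPKM 123 to 435, 1706 to 3106 and 949 to 1698 in the same order). Sham rat 1, which had the highest S100a4 of its group, also had the highest sum of that group for both lists (538 and 435). In the DAPA group the order of the fibroblast sums was the opposite, since rat 1 with the highest S100a4 had the lowest (1544) and rat 3 with the lowest S100a4 the highest (1997). The macrophage sums of DAPA rats 1, 2 and 3 were 1314.5, 949 and 1698, with rat 1 in the middle. MI rat 3, highest of its group for S100a4, had the lowest fibroblast sum there (1946). The macrophage sums of MI rats 1, 2 and 3 were 1706, 3106 and 1774. The part of these cells in the S100a4 values was not tested. The genes most like S100a4 over the 9 rats were Ctsd (root mean square difference 0.19), AABR07063279.1 (0.20) and Ftl1 (0.20). Ctsd encodes the lysosomal protease cathepsin D and Ftl1 the light chain of ferritin. For S100a6 they were AABR07028027.1 (0.12), Tex261 (0.13) and Tgfb1 (0.14), the last encoding the growth factor TGF-beta.

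S100b was the scarcest member, resting on 10 to 356 reads per rat. Its FPKM was 4.38, 1.31 and 0.765 in the Sham rats, 12.4, 3.05 and 6.54 in the MI rats and 4.62, 4.87 and 13.04 in the DAPA rats. MI rat 2 lay below Sham rat 1, whereas all DAPA rats lay above all Sham rats. The log2 fold change was 1.41 in MI vs. Sham (SE 0.54, adjusted p = 0.0773, limma) and 1.47 in DAPA vs. Sham (SE 0.50, adjusted p = 0.0614, limma), so S100b rose by the unadjusted rule only. The MI call was lost without Sham rat 2, Sham rat 3, MI rat 1 or MI rat 3 (0.98 to 1.40) and when low values were not filtered, and the DAPA call without Sham rat 2, Sham rat 3 or DAPA rat 3 (1.04 to 1.33). DAPA vs. MI gave 0.06 (95% interval -1.17 to 1.29).

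Cartilage and fat cells are other known sources of S100b. The summed FPKM of the 6 chondrocyte markers was 2.77 to 7.23 in group Sham, 10.97 to 40.7 in group MI and 10.9 to 17.0 in the DAPA group, with 1 of the 2 tested called higher in MI vs. Sham and Matn3 at 0 in group Sham. The summed FPKM of the 7 adipocyte markers was 3946 to 5593 in group Sham, 181 to 745 in group MI and 591 to 1143 in the DAPA group, a sum mostly of Fabp4, with Adipoq, Plin1 and Cidec at 0 in group Sham. These 3 were above 0 in every ligated rat, with mean FPKM of 0.330, 0.142 and 0.126 in group MI and 3.44, 0.992 and 0.698 in the DAPA group. The part of these cells in the S100b values was not tested. Nearest to S100b over the 9 rats were Pmepa1 (root mean square difference 0.34), AABR07007068.1 (0.37) and Cmklr1 (0.38), farther away than the nearest genes of S100a1 or S100a4.

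S100a8 and S100a9 are the subunits of calprotectin, which neutrophils and monocytes release in inflammation. S100a8 was at 15.5, 14.7 and 3.31 FPKM in the Sham rats, 24.4, 7.06 and 4.29 in the MI rats and 53.4, 4.13 and 5.87 in the DAPA rats. S100a9 was at 24.2, 31.4 and 9.89, at 42.5, 18.3 and 11.8, and at 116, 7.31 and 25.3 FPKM in the same order. DAPA rat 1 was the highest of all 9 rats for both genes, and the groups overlapped throughout. The gap between the highest and the lowest DAPA rat was 15.9-fold for S100a9 and 12.9-fold for S100a8. No comparison called either gene, with log2 fold changes in DAPA vs. MI of 0.27 for S100a8 (95% interval -2.05 to 2.59) and 0.42 for S100a9 (-1.82 to 2.65). Without DAPA rat 1 these were -0.79 and -0.58, so a single animal set their sign.

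The pair kept close company within each rat. The S100a9 to S100a8 ratio was 1.57, 2.13 and 2.99 in the Sham rats, 1.74, 2.60 and 2.74 in the MI rats and 2.18, 1.77 and 4.32 in the DAPA rats, and no group stood apart (exact permutation p = 0.6 to 0.9). Each was the nearest gene to the other over the 9 rats (root mean square difference 0.38). The neutrophil marker Retnlg was among the next (0.49 from S100a8 and 0.41 from S100a9), with RF00604 the remaining gene for both. The 10 neutrophil markers summed to only 1.34 to 5.30 FPKM in group Sham, 4.40 to 9.11 in group MI and 2.03 to 21.1 in the DAPA group, with DAPA rat 1 again at the top. Of the 2 tested in MI vs. Sham, Csf3r was called higher (log2 fold change 1.08) and Retnlg was not (0.07). Csf3r passed the filter on low values (an FPKM of 1 in 3 or more of the rats compared) only through the MI rats. Mpo, Elane and Ltf, which mark neutrophil granules, were at 0 in all Sham and DAPA rats. They were near 0 in group MI too (mean FPKM 0.106, 0.198 and 0.007). The part of neutrophils in the calprotectin values was not tested.

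S100a10 and S100a11 are ligands of annexins. S100a10, which has lost calcium binding and pairs with annexin A2 at membranes, was at 343, 391 and 278 FPKM in the Sham rats, 539, 397 and 359 in the MI rats and 435, 371 and 329 in the DAPA rats. S100a11, a partner of annexin A1, was at 632, 760 and 554, at 523, 460 and 398, and at 479, 441 and 334 FPKM. The S100a10 groups overlapped, whereas every ligated rat lay below every Sham rat for S100a11. In MI vs. Sham S100a10 gave 0.35 (adjusted p = 0.244, limma) and S100a11 -0.49 (adjusted p = 0.0833, limma), and neither was called on the deposited scale. S100a10 was called higher when scaled to all recovered reads (1.46) and to a common sum (1.90). These values were 0.53 and 0.60 above the median of all genes there. S100a11 gave -0.64 in DAPA vs. Sham (adjusted p = 0.0700, limma) and -0.15 in DAPA vs. MI (95% interval -0.68 to 0.39). Its direction against group Sham depends on the scaling: it was 1.07 in MI vs. Sham when scaled to a common sum, and -0.23 relative to the median of all genes there.

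The ratio of the pair within a library does not depend on scaling. S100a10 stood to S100a11 as 0.543, 0.515 and 0.501 in the Sham rats, 1.03, 0.862 and 0.901 in the MI rats and 0.909, 0.841 and 0.985 in the DAPA rats. The means were 0.520 ± 0.0213 for Sham, 0.931 ± 0.0879 for MI and 0.911 ± 0.0719 for the DAPA group (SD, n = 3). All ligated rats lay above all Sham rats (exact permutation p = 0.1 for each group), and the ligated groups overlapped (p = 0.8, exact permutation test). RefSeq lists 5 pseudogenes of S100a11, 2 S100a11-like genes and 1 pseudogene of S100a10, none of them in the table by name, so reads shared with such copies cannot be told apart from those of the genes. Nearest to S100a10 over the 9 rats were Tinagl1 (root mean square difference 0.10), Tcea2 (0.11) and Nucb2 (0.11), and nearest to S100a11 were Hps4 (0.11), Nvl (0.12) and Ell (0.13).

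Their annexin partners differed among themselves. Anxa1, which limits inflammation, was at 62.5, 37.6 and 48.4 FPKM in the Sham rats, 190, 189 and 122 in the MI rats and 171, 123 and 148 in the DAPA rats. It rose in MI vs. Sham (log2 fold change 1.74, adjusted p = 0.00289, limma) and in DAPA vs. Sham (1.57, adjusted p = 0.00374, limma), while its ligand S100a11 was lower in all ligated rats on the deposited scale. Anxa2, the partner of S100a10, gave 0.50 in MI vs. Sham with overlapping groups (adjusted p = 0.123, limma). Anxa6 gave 0.95, under the fold limit (adjusted p = 0.00566, limma). None of the 6 annexin and scaffold genes was called in DAPA vs. MI.

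S100a13 assists the release of fibroblast growth factor 1 and interleukin 1 alpha, proteins that lack a signal peptide. Its FPKM was 70.9, 86.5 and 68.7 in the Sham rats, 31.9, 31.2 and 43.1 in the MI rats and 37.2, 54.0 and 30.7 in the DAPA rats. No ligated rat reached the lowest Sham rat. On the deposited scale S100a13 fell in group MI (log2 fold change -1.08, SE 0.18, adjusted p = 0.00449, limma), a mean 2.13-fold higher in group Sham. The call was lost without Sham rat 2 or MI rat 2, by the fold limit alone (-0.97 and -0.997). In DAPA vs. Sham it was -0.91 (SE 0.23, adjusted p = 0.0228, limma), past the adjusted p but under the fold limit, and it was called without DAPA rat 2 (-1.13). DAPA vs. MI gave 0.17 (95% interval -0.40 to 0.74). Fgf1, the growth factor whose release it assists, was at 8.06, 10.7 and 8.52 FPKM in the Sham rats, 11.2, 5.12 and 12.1 in the MI rats and 18.2, 23.5 and 13.6 in the DAPA rats, above all other rats in the DAPA group. Fgf1 gave 0.94 in DAPA vs. MI (adjusted p = 0.558, limma) and 0.92 in DAPA vs. Sham (adjusted p = 0.0206, limma), past the adjusted p but under the fold limit.

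S100a16 is a widely expressed member in which only 1 EF-hand of each chain binds calcium well. It was at 215, 137 and 167 FPKM in the Sham rats, 75.2, 80.9 and 94.1 in the MI rats and 112, 98.6 and 95.2 in the DAPA rats. The 3 groups did not overlap on the deposited scale, with the DAPA rats between the others and close to the MI rats. On the deposited scale S100a16 fell in group MI (log2 fold change -1.02, SE 0.20, adjusted p = 0.00762, limma), and this call was lost by the fold limit without Sham rat 1 (-0.85) or MI rat 1 (-0.95) and with median-of-ratios scaling (-0.99). DAPA vs. Sham gave -0.73 (adjusted p = 0.0313, limma). DAPA vs. MI gave 0.29 (95% interval -0.07 to 0.66, adjusted p = 0.565, limma), and its two-sided exact permutation p was 0.1. This difference was 0.07 when scaled to all recovered reads and -0.08 when scaled to a common sum. Relative to the median of all genes on those scales it was 0.28 and 0.27.

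The falls of S100a13 and S100a16 depend on how the libraries are scaled. Scaled to all recovered reads, MI vs. Sham was 0.01 for S100a13 and 0.08 for S100a16, and scaled to a common sum 0.45 and 0.52. Relative to the median of all genes they stayed lower, at -0.91 and -0.84 on the first of these scales and -0.85 and -0.78 on the other. S100a4 was 1.55 and 1.62 above that median, and S100b 1.22 and 1.26. S100a13 and S100a16 were each other's nearest member (root mean square difference 0.31), and among all genes S100a13 was nearest to Rdm1 (0.12), Commd4 (0.13) and Hars2 (0.14) and S100a16 to RGD1310587 (0.13), Nrarp (0.13) and Phf1 (0.14). Of the 5 endothelial markers tested, 4 were called lower in MI vs. Sham on the deposited scale, where 10.3% of all genes were (summed FPKM 815 to 898 in group Sham, 209 to 278 in group MI and 289 to 325 in the DAPA group). Like the falls above, these calls are relative to the bulk of the other genes. The part of endothelial cells in the S100a13 and S100a16 values was not tested.

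**Figure D3:**
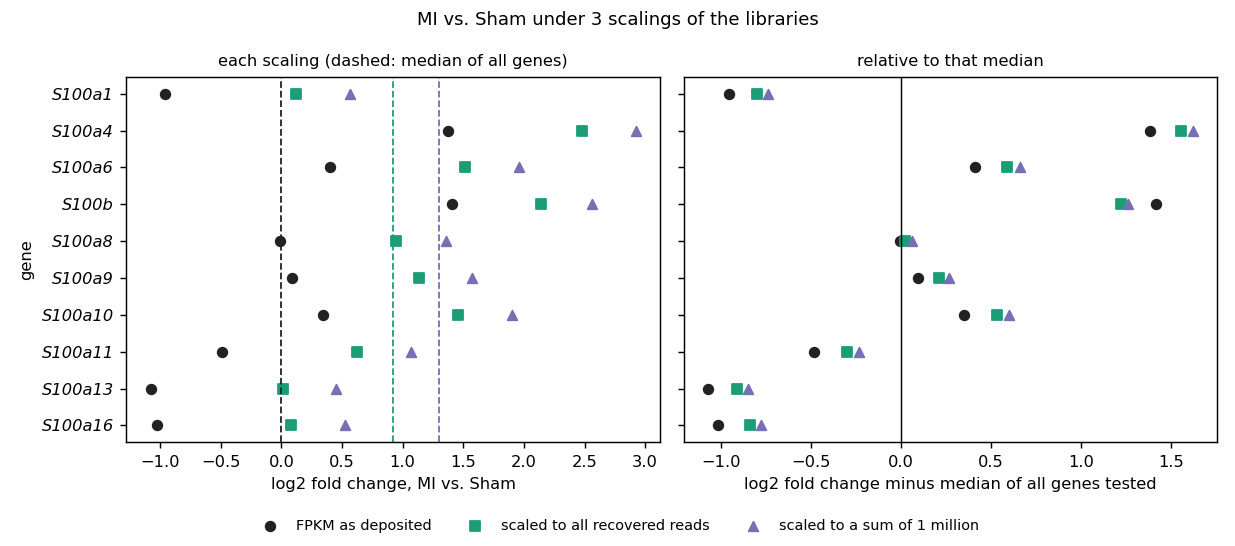
Log2 fold changes in MI vs. Sham for the 10 genes under 3 scalings of the libraries (left, dashed lines at the median of all genes tested) and the same values minus that median (right). S100a13 and S100a16 cross 0 on the left, from -1.08 and -1.02 to 0.45 and 0.52, but all their values on the right are negative, and those of S100a4 and S100b positive.

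The S100a4 to S100a16 ratio, free of scaling, joins a member that stood higher in all MI rats with one that stood lower, so that its separation from group Sham follows from the choice of the pair and is given as a description. It was 0.698, 0.487 and 0.445 in the Sham rats, 3.04, 2.86 and 2.65 in the MI rats and 2.27, 2.14 and 1.75 in the DAPA rats. The means were 0.543 ± 0.135 for Sham, 2.85 ± 0.198 for MI and 2.05 ± 0.269 for the DAPA group (SD, n = 3). No group overlapped another, and the DAPA rats lay between the others. S100a16 was also the 1 member for which every DAPA rat stood above every MI rat. The S100a4 to S100a13 ratio was 5.78 to 7.40 in the MI rats and 3.91 to 6.85 in the DAPA rats, with overlap (exact permutation p = 0.2). The S100a6 to S100a16 ratio was 3.17 to 5.21 and 3.31 to 4.71 in the same order, also with overlap (exact permutation p = 0.6). S100a1 against its neighbour S100a13 gave 0.781, 0.644 and 1.19 in the Sham rats, 1.10, 0.611 and 1.12 in the MI rats and 1.88, 1.53 and 1.26 in the DAPA rats. The DAPA rats lay above all others in that ratio (exact permutation p = 0.1 against each group), and the Sham and MI rats overlapped. These were among 8 within-library ratios computed, chosen with the levels of the members known, and with 3 rats a group none of them could reach a p under 0.05.

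**Figure D4:**
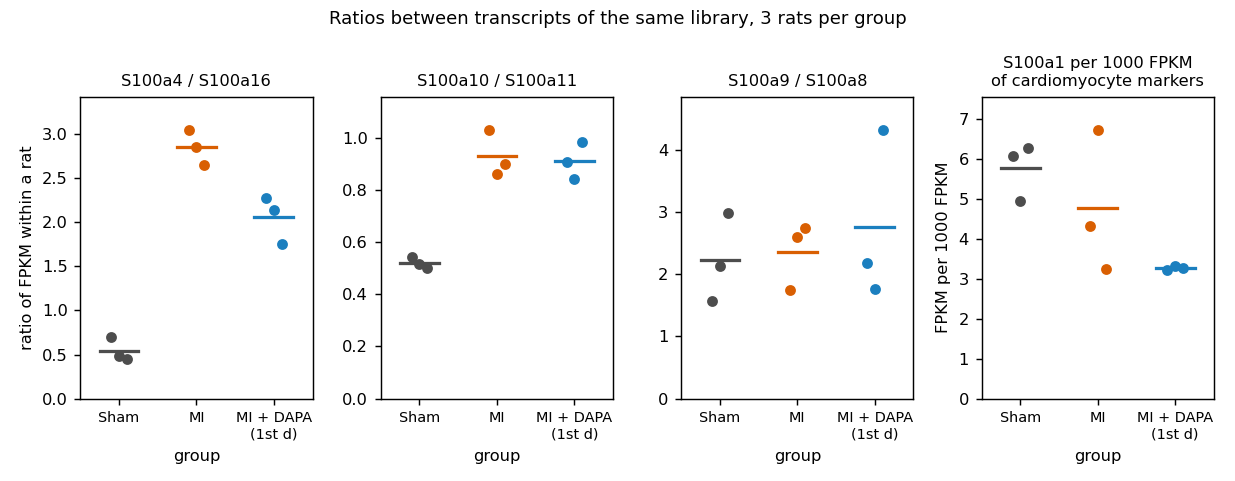
Ratios of FPKM within each library, with 1 point per rat and a bar at the group mean: S100a4 to S100a16, S100a10 to S100a11, S100a9 to S100a8, and S100a1 per 1000 FPKM of the 10 cardiomyocyte markers. The S100a4 to S100a16 panel shows 3 separate groups (means 0.543, 2.85 and 2.05), the S100a10 to S100a11 panel a separate group Sham, and the S100a9 to S100a8 panel overlap of all groups.

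The summed FPKM of the 10 members was 1441 to 2092 per rat. S100a11 took 33.6% to 43.3% of that sum in group Sham, 26.3% to 27.6% in group MI and 22.9% to 27.5% in the DAPA group. S100a4 took 3.79% to 7.95%, 12.0% to 16.5% and 11.6% to 13.2%. S100a16 took 7.77% to 11.4%, 3.96% to 6.22% and 5.37% to 6.61%. For these 3 genes no ligated rat entered the Sham range, and for S100a13 none did either (3.76% to 4.93%, 1.68% to 2.85% and 1.78% to 3.37%).

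**Figure D5:**
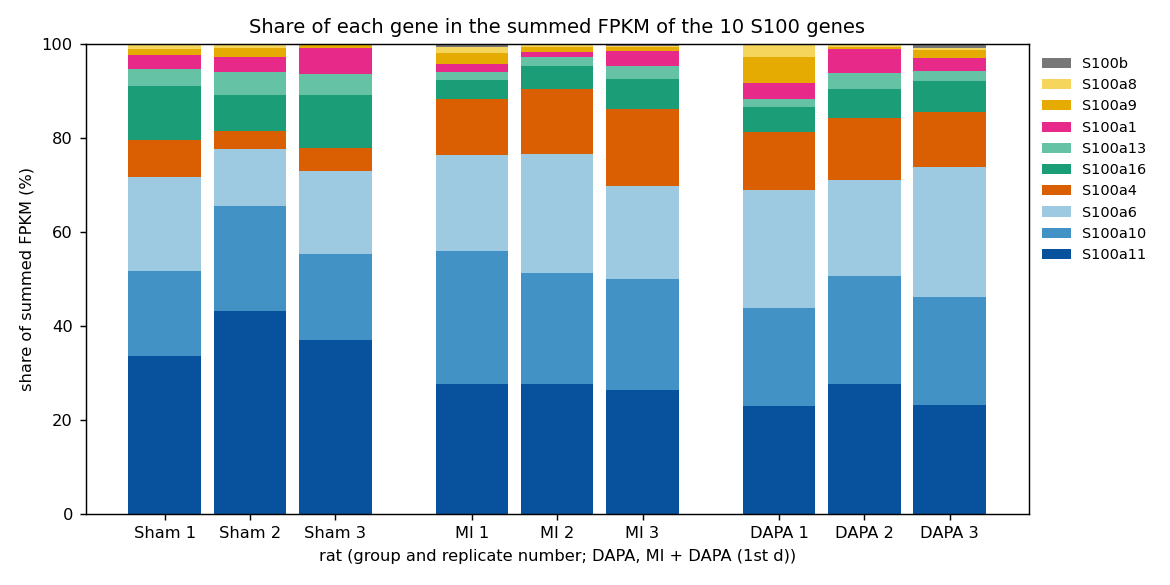
Share of each gene in the summed FPKM of the 10 S100 genes, 1 stacked bar per rat (DAPA, MI + DAPA (1st d)). S100a11 takes 33.6% or more in the Sham rats and 27.6% or less in the ligated rats, and S100a4 7.95% or less and 11.6% or more.

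The receptors and targets of S100 proteins were followed as a list of 30 genes, 27 of which were in the table. In MI vs. Sham 5 of the 24 tested were called higher and 1 lower, against 12.1% and 10.3% of all genes, with a median log2 fold change of 0.23. By the adjusted p 8 were higher and 4 lower, against 19.5% of all genes in each direction. DAPA vs. MI called 0 of 24 in either direction by limma (0.951% and 1.11% of all genes), with 3 at an unadjusted p under 0.05 (Ager, Atp2a2 and Fgf1), 0 by the adjusted p and a median of -0.08. In DAPA vs. Sham 3 of 23 were called higher and 1 lower (9.54% and 8.16% of all genes), with a median of 0.40. The 5 higher in MI vs. Sham were Cd14, Emb, Anxa1, Alcam and Tlr4, and the 1 lower was Ager (Alcam and Tlr4 are named because the count was small). Emb entered the test only through the MI rats, in which it was high.

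Receptors for released S100 proteins went in different directions. Cd14, the co-receptor of Tlr4, was at 8.38, 2.87 and 3.28 FPKM in the Sham rats, 28.4, 33.2 and 15.9 in the MI rats and 29.6, 13.5 and 25.6 in the DAPA rats. It rose in MI vs. Sham (log2 fold change 2.26, adjusted p = 0.00572, limma) and Tlr4 rose by 1.22 (adjusted p = 0.00409, limma). Emb, a receptor for S100a8 and S100a9, was at 0.538, 0.183 and 0 FPKM in the Sham rats, 4.47, 5.84 and 1.62 in the MI rats and 5.80, 0.876 and 1.92 in the DAPA rats. It passed the filter on low values in MI vs. Sham only through the MI rats. Its log2 fold change there (1.92, adjusted p = 0.00881, limma) is therefore a description only, and it missed the filter in DAPA vs. Sham. Ager was at 6.87, 10.7 and 6.55 in the Sham rats, 3.04, 2.75 and 2.22 in the MI rats and 5.83, 4.06 and 3.52 in the DAPA rats. It fell in MI vs. Sham on the deposited scale (-1.28, adjusted p = 0.00519, limma), a call lost when scaled to all recovered reads or to a common sum, and all DAPA rats lay above all MI rats (0.56, adjusted p = 0.558, limma).

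Among the intracellular targets, none of the 6 tested was called in MI vs. Sham. Stk38, a kinase bound by S100b, was at 15.4, 21.8 and 20.6 FPKM in the Sham rats, 9.86, 10.9 and 9.80 in the MI rats and 7.76, 10.2 and 6.87 in the DAPA rats, and it fell in DAPA vs. Sham on the deposited scale (log2 fold change -1.13, adjusted p = 0.00782, limma), a call lost when scaled to all recovered reads or to a common sum. The scaffold Iqgap1 gave 0.83 and the S100a6 target Sugt1 -0.65 in MI vs. Sham (adjusted p = 0.0188 and 0.00809, limma), both under the fold limit.

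Beyond the 10 members, 8 other rows carried an S100 name. S100pbp, which encodes an S100-binding protein rather than a family member, ranged from 2.23 to 6.10 FPKM, and S100a3 from 0.207 to 3.56 in all 9 rats. S100a5, S100z, S100a7a, S100a7l2 and S100g were above 0 in 5, 2, 3, 1 and 1 rats, none above 1.51, and S100vp was at 0 in every rat. S100a3 and S100a5, which flank S100a4 in the gene cluster, did not exceed 3.56 FPKM in the libraries in which S100a4 reached 255.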

How the data were processed

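Poly-A selected libraries from the left ventricles of 9 rats were sequenced by the authors as paired ends, and FPKM values were deposited, 1 column per rat, for 35843 genes, of which 2960 have no gene name or Ensembl identifier. The submitters' processing notes name HISAT2 2.0.5, StringTie 1.3.3b, featureCounts 1.5.0-p3 and DESeq2, and the genome build is not given in the sources used here. FPKM divides out gene length and a library total, so depth was taken from the steps between values: 18896 of 18896 genes with values in at least 4 rats gave whole reads in every rat (tolerance 0.02). No column was left out (0 columns not used). Columns were matched to groups and replicate numbers by name. Reads carried no molecular identifiers, so depth covers counting error only.

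Since the values are not counts, limma 3.58.1 (R 4.3.3) was fitted to log2(FPKM + 1) of the 2 groups compared, with an intensity trend and no covariate, on genes that reached an FPKM of 1 in 3 or more of those rats. This scale understates the change of low genes. Following the study's own thresholds, calls needed an unadjusted p below 0.05 and a log2 fold change larger than 1 in size, and p-values were adjusted by Benjamini-Hochberg over all genes tested. The labels state biological replicates, and the p-values measure the spread between these rats. Within-rat ratios were tested by exact permutation (two-sided), which cannot give less than 0.1 with 3 against 3 rats. The fit was tested on simulated data. Other steps used numpy 2.4.6, pandas 2.3.3 and matplotlib 3.10.9 in Python 3.11.15.

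The 10 members and the lists of partners and cell markers were chosen with earlier results of these data known. The result of 1 marker list is not reported here. All members are named. Of the partners, the 3 per role with the largest change in MI vs. Sham are named, and for each member the 3 genes with the smallest root mean square difference over the 9 rats. Alternatives were a pseudocount of 0.1, other filters and scalings, all 9 rats in 1 fit, the replicate block, other call rules and each rat left out in turn. Same-numbered rats did not deviate together in every pair. Promoters came from RefSeq (GRCr8), matched by symbol.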

Additional observations from a re-analysis of the deposited data

How the results depend on the processing

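Of the 478 values of single members under an alternative, 401 kept their direction and their side of the call, 18 newly passed the call and 14 lost it. Another 39 changed sign with neither value called, and 6 changed sign with 1 of the values called. These 6 were all against group Sham and under a scaling to a larger total: in MI vs. Sham S100a11 (1.07), S100a13 (0.45) and S100a16 (0.52) when scaled to a common sum and S100a13 (0.014) and S100a16 (0.081) when scaled to all recovered reads, and S100a1 in DAPA vs. Sham (1.11) when scaled to a common sum. These scalings raise the median of all genes by construction, since the mitochondrial genome took most of the reads in group Sham. S100b, S100a8 and S100a9 rested on the fewest reads, 10, 11 and 46 in the lowest rat.

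In MI vs. Sham, the 2 members called higher became 1 with no filter on low values, 1 with a stricter filter (mean FPKM of at least 5), 6 when scaled to a common sum, 4 when scaled to all recovered reads and 1 with the adjusted p. The 2 called lower became 0 under both of these scalings and 1 with median-of-ratios scaling. S100a1 joined these 2 with the mitochondrial genome left out (-1.02) and with a 1.5-fold limit (-0.96). Other counts that moved by no more than 1.5-fold are not listed in this paragraph. The 5 partners called higher became 2 with the stricter filter, 19 and 16 under the scalings, 8 with the adjusted p and 8 with a 1.5-fold limit, and the 1 called lower became 0 and 0, 4 and 4. In DAPA vs. MI, the 0 partners called higher became 1 with a pseudocount of 0.1, 1 with all 9 rats in the fit and 2 with a 1.5-fold limit. In DAPA vs. Sham, the 2 members called higher became 1 with the stricter filter, 5 and 4 under the scalings and 1 with the adjusted p, and the 0 called lower became 1 without the mitochondrial genome, 2 with the adjusted p and 3 with a 1.5-fold limit. The 3 partners called higher became 19 and 13 under the scalings, 9 with the adjusted p and 9 with a 1.5-fold limit, and the 1 called lower became 0, 0 and, with the 1.5-fold limit, 2.

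Leaving out each rat in turn gave 1 to 2 members higher and 1 to 3 lower in MI vs. Sham, 0 to 1 higher in DAPA vs. MI, and 0 to 2 higher and 0 to 1 lower in DAPA vs. Sham. For the partners it gave 4 to 6 higher and 1 to 2 lower in MI vs. Sham, 0 to 4 higher in DAPA vs. MI and 3 to 5 higher in DAPA vs. Sham. With the replicate number as a block, 2 members were called higher and 2 lower in MI vs. Sham, as without it, and 0 and 0 in DAPA vs. MI. The deviations of same-numbered rats correlated at -0.01 to 0.07 in MI vs. Sham, -0.33 to 0.03 in DAPA vs. MI and -0.01 to 0.19 in DAPA vs. Sham, where they were over 0.1 in 2 of 3 pairs. Since they were not over 0.1 in every pair, the numbers were not taken to pair the rats.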
